A study of Mus musculus with 6 samples.

Results

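Circular RNAs (circRNAs) of 10 receptor-type tyrosine phosphatase genes were examined: Ptprd, Ptprs, Ptprf, Ptprg, Ptprk, Ptprm, Ptprt, Ptprj, Ptpro and Ptprz1. All rows of the deposited table whose host gene is 1 of these 10 were taken. The rule uses gene names only, although the genes were picked with earlier results of these data known. These rows were 27 circRNAs of 11171 listed (0.242%), and they came from 6 of the 10 genes. Ptprd had 12 of them, Ptprg 4, Ptprt 4, Ptprz1 3, Ptprk 2 and Ptprm 2. Ptprs, Ptprf, Ptprj and Ptpro had no row. The cortex of 3 Control and 3 TLE (temporal lobe epilepsy) male C57BL/6 mice (C57BL/6J in the study's methods), 6 weeks old, was sequenced with 1 library per mouse. TLE mice were given scopolamine methyl bromide and then pilocarpine, which set off Status Epilepticus (SE), and diazepam to end it, whereas Control mice were given saline at each step. TLE cortex was taken 24 h after SE, an early time in this model. The effects of the seizures and of the 3 agents cannot be told apart.

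Receptor-type tyrosine phosphatases span the plasma membrane once, with an adhesive region outside the cell and phosphatase domains inside that remove phosphate from tyrosine residues. The LAR type (Ptprd, Ptprs, Ptprf) carries immunoglobulin-like and fibronectin domains and organizes synapses by binding partners on the facing membrane. Receptors of the MAM type (Ptprk, Ptprm, Ptprt) bind copies of themselves on neighbouring cells and act at cadherin junctions. The carbonic anhydrase type (Ptprg, Ptprz1) binds contactins and other adhesion proteins, and Ptprz1 is well known in glia and their precursors. The fibronectin type (Ptprj, Ptpro) has an outer region of fibronectin repeats. A circRNA forms when the end of a downstream exon is spliced back to the start of an upstream exon, so that only a read across this junction tells it from the linear transcript.

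The junction of each circRNA identifies it. The sequences below were built from the GENCODE M21 exons of GRCm38 for the circRNAs on which the results turn. Each shows the last 15 bases of the downstream exon in lower case and the first 15 bases of the upstream exon in capitals, 5′ to 3′ on the transcript strand. The junction of mmu_circ_0007530 is not shown because its first exon is partly untranslated.
Ptprd mmu_circ_0007527 (exon 13 to exon 10): gaaccatgcaatcaaTTCGCCGTGTCCCAC
Ptprd mmu_circ_0007521 (exon 25 to exon 23): tcccaggaatatgagAAGATGTATGCAACC
Ptprd mmu_circ_0007522 (exon 25 to exon 22): tcccaggaatatgagCTGCTTAAGGAGATA
Ptprd mmu_circ_0007529 (exon 4 to exon 3): tcacagttttacgtgCACCCCCCAGGTTTA
Ptprm mmu_circ_0003770 (exon 19 to exon 16): aaggaggagtatgagGAAACTGGCCAAGAA
Ptprm mmu_circ_0003769 (exon 20 to exon 16): ggaacatcattgcatGAAACTGGCCAAGAA
Ptprt mmu_circ_0005863 (exon 6 to exon 3): agctgattgtgaaagGGTCCTTCATGATGG
Ptprg mmu_circ_0002274 (exon 4 to exon 3): aggtttcctgtggagGTGCCTATGGTCCTG
Ptprz1 mmu_circ_0008560 (exon 12 to exon 11): aaccagtatacaatgAACTTGACCTTTTTC
The pair with a shared lower-case stretch, mmu_circ_0007521 and mmu_circ_0007522, ends at the same exon of Ptprd and differs in where the circle begins. The Ptprm pair shares its capitals, since both circles begin at exon 16.

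Values are in SRPBM, junction-spliced reads scaled to the mapped reads of the library, and a circRNA's length does not enter them. The smallest value listed in a library was 2 junction reads, so a circRNA at 0 may have had 0 or 1 read. The libraries held between 32504 and 56516 junction reads, and 3 reads, taken as the floor of counting error, were worth between 25.6 and 31.0 SRPBM. TLE replicate 3 held the most junction reads and stood apart with 5976 circRNAs detected, against 3989 to 5052 in the others. It was not the deepest by mapped reads, since 1 read was worth 8.65 SRPBM there and 8.55 SRPBM in Control replicate 1. The table holds no linear mRNA, so the tissue could be checked only through circRNA hosts. Of 7 neuron marker genes, Rbfox3 and Syt1 had circRNAs, with a sum of 137 to 307 SRPBM in Control and 145 to 289 SRPBM in TLE. Syt1 made up most of this sum, with 137, 288 and 129 SRPBM in Control and 145, 289 and 251 SRPBM in TLE. Rbfox3 had 0, 18.6 and 34.5 SRPBM in Control, on 6 reads in all, and was listed at 0 throughout TLE. Of 4 astrocyte markers only Slc1a2 had any (0 to 17.2 SRPBM in Control, 0 to 34.6 SRPBM in TLE). The marker genes of oligodendrocytes, their precursors, microglia and endothelial cells were listed with 0 circRNAs. In whole cortex, fewer cells of a type and less RNA per cell cannot be told apart.

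The phosphatase circRNAs were scarce. Over the 6 libraries they had 212 junction reads together, and 132 of these (62.3%) were from Ptprd. Ptprg had 24 reads, Ptprm 19, Ptprt 16, Ptprz1 15 and Ptprk 6. The highest single value was 72.3 SRPBM, and no circRNA had more than 8 reads in a library. Of the 162 values (27 circRNAs in 6 libraries), 58 were above 0 and 24 were above 3 reads. A member had a median of 4 reads in total, against 5 over all circRNAs listed. With its 12 circRNAs Ptprd was among the 107 of 3469 host genes that had as many or more, and the median host had 2.

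Detection varied from library to library. Of the 27 circRNAs, 13 (48.1%) were detected in exactly 1 library, against 45.4% of all circRNAs. Only mmu_circ_0007527 of Ptprd was detected in all 6 (3.70%, against 13.9% of all circRNAs). There were 12 members seen in TLE libraries alone, 3 in Control libraries alone and 12 in both groups, and over all circRNAs 30.5% were seen in TLE alone and 22.6% in Control alone. Of the 12 seen in TLE alone, 6 were seen in TLE replicate 3 and in no other library. Control libraries detected 10, 7 and 8 of the circRNAs in replicates 1, 2 and 3, and TLE libraries detected 7, 10 and 16, so the groups overlapped. Means were 8.33 ± 1.53 and 11 ± 4.58 circRNAs (SD, n = 3 per group). Without TLE replicate 3 the difference shrank from 2.67 to 0.167 circRNAs. When the reads of each library were thinned to those of the shallowest, the means were 7.07 and 8.14 circRNAs.

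**Figure D1:**
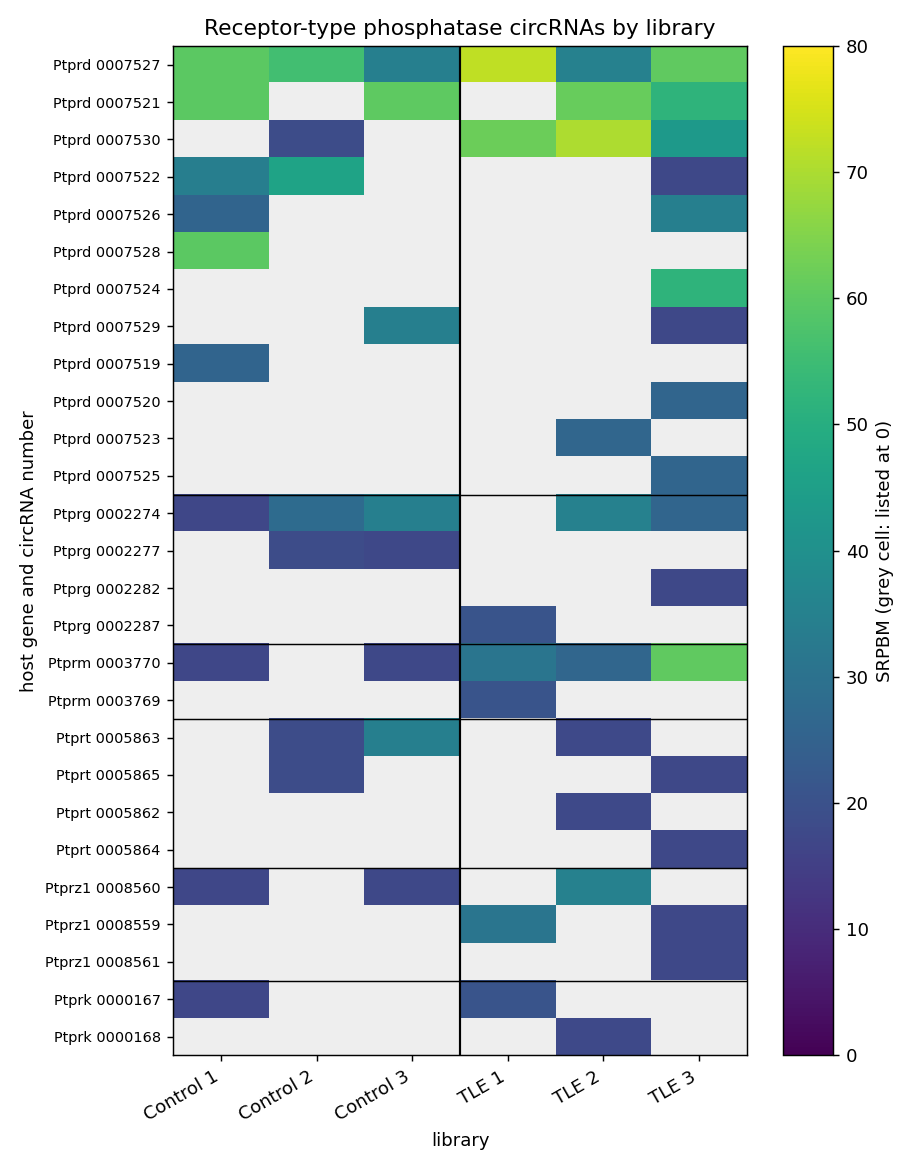
Heat map of the SRPBM of the 27 circRNAs (rows, grouped by host gene) in the 3 Control and 3 TLE libraries (columns); a grey cell is a value listed at 0. The row of Ptprd mmu_circ_0007527 is filled in all 6 libraries, the row of mmu_circ_0007530 is bright in the 3 TLE libraries, and 13 rows hold a single filled cell.

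Among the Ptprd circRNAs, mmu_circ_0007530 was the only one of the 27 members past the study's threshold between TLE and Control. That threshold asks for a log2 fold change of 1.5 or more, up or down, and was read here with an unadjusted p under 0.05. It lies on the minus strand at chr4:76243645-76325345 (mm10) and spans exons 2 to 4 of the 36 exons of the transcript Ptprd-206. Its value was 0, 18.6 and 0 SRPBM in Control replicates 1, 2 and 3, and 62.0, 70.1 and 43.3 SRPBM in TLE replicates 1, 2 and 3. All 3 TLE libraries were above all 3 Control libraries. Behind these values were 2 junction reads in Control and 19 in TLE. The ratio of these reads per unit of depth was 9.91, with an exact 95% interval of 2.39 to 87.8 that covers counting error only and treats unlisted reads as 0. On the log2(SRPBM + 17.1) scale, which understates changes of scarce circRNAs, the fold change was 1.77 (SE 0.62, n = 3 per group, limma, unadjusted p = 0.0109). The Benjamini-Hochberg adjusted p in limma was 0.838 over the 4271 circRNAs tested, so the difference did not hold after correction for multiple tests. No tested circRNA of any gene had an adjusted p under 0.05 in limma, and 222 had an unadjusted p under 0.05. The exact two-sided permutation test of the 6 libraries gave p = 0.1, the smallest value that 3 against 3 allows. Groups without overlap always give this value, so it adds nothing to the separation already stated. Leaving out any single library gave log2 fold changes between 1.6 and 2.13.

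This circRNA holds the start codon of Ptprd, the only member of the 27 that does. The 3 exons sum to 454 nucleotides, of which 352 are coding for residues 1 to 118 of the 1912 residues of Ptprd-206. The signal peptide and the first immunoglobulin-like domain of LAR type receptors lie at this end of the protein. Introns of 124297 and 102942 bases flank the circle. A second circRNA, mmu_circ_0007529 (chr4:76243645-76246898), ends at the same exon 4 but begins at exon 3. It was listed at 0, 0 and 34.5 SRPBM in Control and 0, 0 and 17.3 SRPBM in TLE, was detected in 2 libraries only and was not tested. The sum of both circRNAs at this exon end was 0, 18.6 and 34.5 SRPBM in Control and 62.0, 70.1 and 60.6 SRPBM in TLE. All TLE libraries were above all Control libraries in this sum, which includes the circRNA past the threshold.

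The most abundant member was mmu_circ_0007527, exons 10 to 13 of Ptprd (chr4:76102955-76133332), which codes for residues 231 to 608 in the outer region of the receptor. Its values were 59.8, 55.8 and 34.5 SRPBM in Control and 72.3, 35.1 and 60.6 SRPBM in TLE, and the groups overlapped. The log2 fold change was 0.11 (SE 0.48). Next by reads was mmu_circ_0007521, exons 23 to 25 (chr4:76039281-76059829), which spans the membrane segment. It was listed at 59.8, 0 and 60.3 SRPBM in Control and 0, 61.4 and 51.9 SRPBM in TLE. In each group it was thus absent from the list in 1 library and between 51.9 and 61.4 SRPBM in the others, and its log2 fold change was -0.05 (SE 0.75). These 3 circRNAs, with mmu_circ_0007530, had 83 of the 132 Ptprd reads (62.9%).

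The circRNA with the lowest log2 fold change of the tested members was also from Ptprd. This was mmu_circ_0007522, exons 22 to 25 (chr4:76039281-76066377), with 34.2, 46.5 and 0 SRPBM in Control and 0, 0 and 17.3 SRPBM in TLE. The groups overlapped, and the log2 fold change was -0.82 (SE 0.64, limma, unadjusted p = 0.215). The other 7 Ptprd circRNAs that were not tested and share no end with mmu_circ_0007530 each had between 3 and 7 reads over all libraries. One of them, mmu_circ_0007528 (exons 5 to 13), was read only in Control replicate 1, at 59.8 SRPBM, and another, mmu_circ_0007524 (exons 10 to 25), only in TLE replicate 3, at 51.9 SRPBM.

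Circles of Ptprd reused a few exon ends. The end of exon 25 (position 76039281) closed 4 circRNAs with 47 reads, and the start of exon 10 (position 76133332) opened 4 circRNAs with 51 reads. The end of exon 13 (position 76102955) was shared by 2 circRNAs with 42 reads, and the start of exon 23 (position 76059829) by 2 circRNAs with 30 reads. One circRNA, mmu_circ_0007524, joins the exon 25 end to the exon 10 start.

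Summed over its 12 circRNAs, Ptprd gave 265, 121 and 129 SRPBM in Control and 134, 193 and 329 SRPBM in TLE (172 ± 80.9 against 219 ± 99.8, SD, n = 3). The groups overlapped, with Control replicate 1 above 2 of the TLE libraries. The log2 fold change of the sum was 0.32 (SE 0.39, limma, unadjusted p = 0.425, adjusted p = 0.907). Without mmu_circ_0007530, the Ptprd sum was 265, 102 and 129 SRPBM in Control and 72.3, 123 and 286 SRPBM in TLE. That circRNA made up 0, 15.4 and 0% of the Ptprd signal in Control and 46.2, 36.4 and 13.2% in TLE. Its share was thus highest in TLE replicates 1 and 2, while TLE replicate 3 lay below Control replicate 2.

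Circles of the MAM type came from all 3 genes. Ptprm, a receptor that joins like cells to each other, had mmu_circ_0003770 (exons 16 to 19, chr17:66809466-66817977) as its main circRNA. Its values were 17.1, 0 and 17.2 SRPBM in Control and 31.0, 26.3 and 60.6 SRPBM in TLE, and the groups did not overlap. They rest on 4 reads in Control and 13 in TLE, a ratio per unit of depth of 3.39 with an exact 95% interval of 1.05 to 14.3. This interval covers counting error only, not the spread between mice, and treats unlisted reads as 0. The log2 fold change was 1.0 (SE 0.63, limma, unadjusted p = 0.129, adjusted p = 0.922), under the threshold. The second circRNA, mmu_circ_0003769 (exons 16 to 20, chr17:66762129-66817977), was seen only in TLE replicate 1, at 20.7 SRPBM. The summed Ptprm signal was 17.1, 0 and 17.2 SRPBM in Control and 51.6, 26.3 and 60.6 SRPBM in TLE. It did not overlap between the groups, and its log2 fold change of 1.18 (SE 0.62, limma, unadjusted p = 0.0750, adjusted p = 0.834) did not pass the threshold. Exon 16 of Ptprm begins just past the membrane segment, so both circles code for the part inside the cell that precedes the first phosphatase domain's active site.

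Ptprt, the MAM type receptor best known from neurons, had 4 circRNAs, all from exons 2 to 9. The one with most reads, mmu_circ_0005863 (exons 3 to 6, chr2:162238007-162278319), was listed at 0, 18.6 and 34.5 SRPBM in Control and 0, 17.5 and 0 SRPBM in TLE. The groups overlapped and the log2 fold change was -0.55 (SE 0.58). The sum over Ptprt was 0, 37.2 and 34.5 SRPBM in Control and 0, 35.1 and 34.6 SRPBM in TLE, nearly the same set of levels in both groups (log2 fold change -0.02, SE 0.69). Ptprk was the weakest host. Its circRNA mmu_circ_0000167 (exons 6 to 7, chr10:28354605-28383724) was read in the first replicate of each group, at 17.1 and 20.7 SRPBM. A second circRNA, mmu_circ_0000168, has the same end but begins 74 bases inside exon 6, and it was read only in TLE replicate 2, at 17.5 SRPBM. Both groups of Ptprk were at or under the floor for each circRNA. The summed log2 fold change of Ptprk was 0.39 (SE 0.61).

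Added over the 8 circRNAs of the 3 MAM type genes, the signal was 34.2, 37.2 and 51.7 SRPBM in Control and 72.3, 78.9 and 95.2 SRPBM in TLE. The means were 41.0 ± 9.36 and 82.1 ± 11.8 SRPBM (SD, n = 3), and the TLE libraries were above the Control libraries. The groups also did not overlap after each library was rescaled to the same total circRNA signal (44.7 ± 8.96 against 76.2 ± 4.74 SRPBM). Most of the difference was in Ptprm, whose mean was 11.4 SRPBM in Control and 46.2 SRPBM in TLE. The means of Ptprt were 23.9 and 23.2 SRPBM, and those of Ptprk 5.70 and 12.7 SRPBM, in the same order. This sum combines genes chosen with earlier results known, and no test was made of it.

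In the carbonic anhydrase type, Ptprg showed no difference past its spread. Its main circRNA mmu_circ_0002274 (exons 3 to 4, chr14:11952716-11962722), in the carbonic anhydrase-like outer end of the receptor, gave 17.1, 27.9 and 34.5 SRPBM in Control and 0, 35.1 and 26.0 SRPBM in TLE. Its log2 fold change was -0.35 (SE 0.65), and the groups overlapped. The sum over the 4 Ptprg circRNAs was 17.1, 46.5 and 51.7 SRPBM in Control and 20.7, 35.1 and 43.3 SRPBM in TLE (log2 fold change -0.11, SE 0.60). The remaining 3 circRNAs of Ptprg had 2 to 4 reads each.

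Ptprz1, known as a receptor of glia that binds pleiotrophin and contactin, differed more by its sum than by any single circRNA. Its main circRNA mmu_circ_0008560 (exons 11 to 12, chr6:22994518-23000199) was listed at 17.1, 0 and 17.2 SRPBM in Control and 0, 35.1 and 0 SRPBM in TLE (log2 fold change -0.13, SE 0.60). Another, mmu_circ_0008559 (exons 2 to 12), had 31.0, 0 and 17.3 SRPBM in TLE and was listed at 0 throughout Control. The third, mmu_circ_0008561, was read only in TLE replicate 3, at 17.3 SRPBM. The first and second end at an exon end of a shorter annotated transcript (1463 residues), whereas the third was placed on a longer one (2312 residues). The sums were 17.1, 0 and 17.2 SRPBM in Control and 31.0, 35.1 and 34.6 SRPBM in TLE, and they did not overlap. They rest on 3 or 4 reads in each TLE library, and the log2 fold change of 0.90 (SE 0.62, limma, unadjusted p = 0.161, adjusted p = 0.863) did not pass the threshold. Added over the 7 circRNAs of Ptprg and Ptprz1, the carbonic anhydrase type gave 34.2, 46.5 and 68.9 SRPBM in Control and 51.6, 70.1 and 77.9 SRPBM in TLE, and the groups overlapped.

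**Figure D2:**
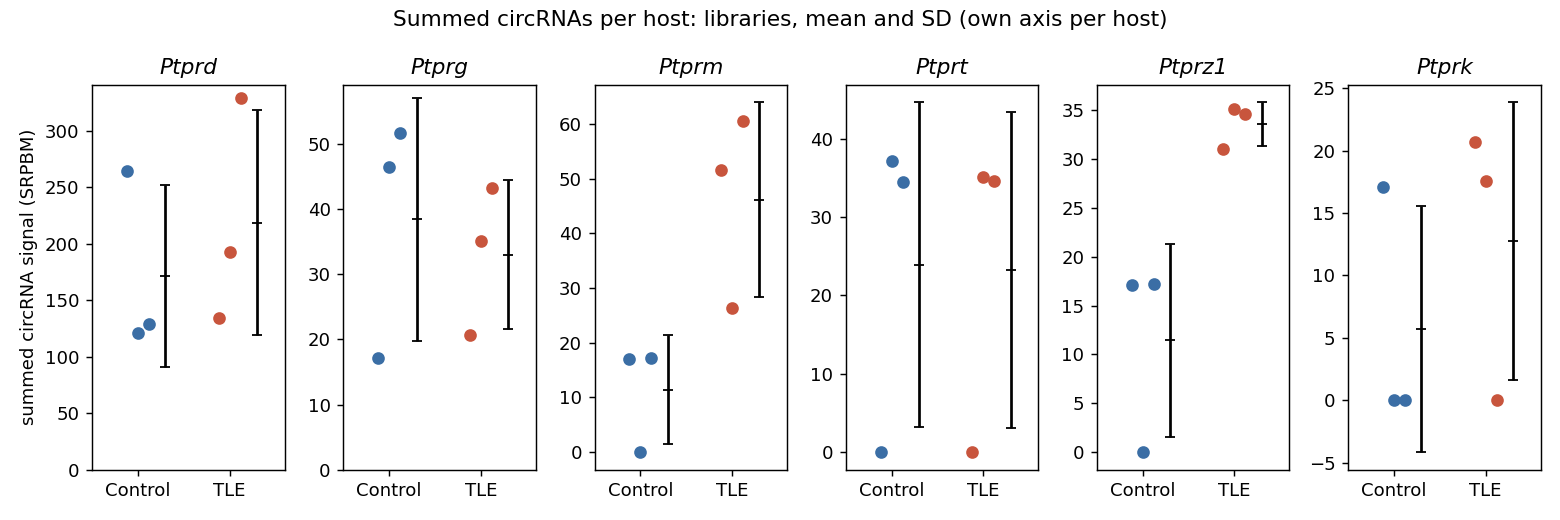
Summed circRNA signal (SRPBM) of each of the 6 host genes in the Control and TLE libraries: points are libraries, the bar at the right of each group is the mean with its SD (n = 3), and each panel has its own linear axis. The Ptprm and Ptprz1 panels show TLE points above all Control points, while the groups overlap for Ptprd, Ptprg, Ptprt and Ptprk.

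Of the 27 circRNAs, 8 were above 0 in at least 3 libraries and were tested (29.6%, against 38.2% of all circRNAs). As a group also holds 3 libraries, a circRNA can pass this filter through the group where it is high. One was past the threshold and higher in TLE, and 0 were lower. Over all 4271 tested circRNAs, 1.26% were past it and higher, and 0.304% were past it and lower. Among the 8, the groups did not overlap for 2 circRNAs, mmu_circ_0007530 and mmu_circ_0003770, both with TLE above, and for 0 with TLE below. These 2 circRNAs were above 0 in all 3 TLE libraries, which alone let them pass the filter. Over all tested circRNAs, which passed the same filter, the shares were 8.94% with TLE above and 2.11% with TLE below. The log2 fold change was above 0 in 3 of the 8 and below 0 in 5. Their median was -0.09, against 0.17 over all tested circRNAs. After libraries were rescaled to the same total signal, these medians were -0.20 and 0.01.

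All 6 hosts with circRNAs were tested on their summed signal, and 0 were past the threshold in either direction. Over all 2157 hosts tested, 1.53% were past it and higher, and 0.371% were past it and lower. With limma, 0 hosts of any kind had an adjusted p under 0.05, and 133 had an unadjusted p under 0.05, of which 0 were among the 6. The groups did not overlap for 2 of the 6, Ptprm and Ptprz1, both with TLE above, against 10.7% of all hosts with TLE above and 1.95% with TLE below. The median log2 fold change was 0.35 over the 6 hosts and 0.20 over all hosts, and 0.24 and 0.02 after rescaling.

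**Figure D3:**
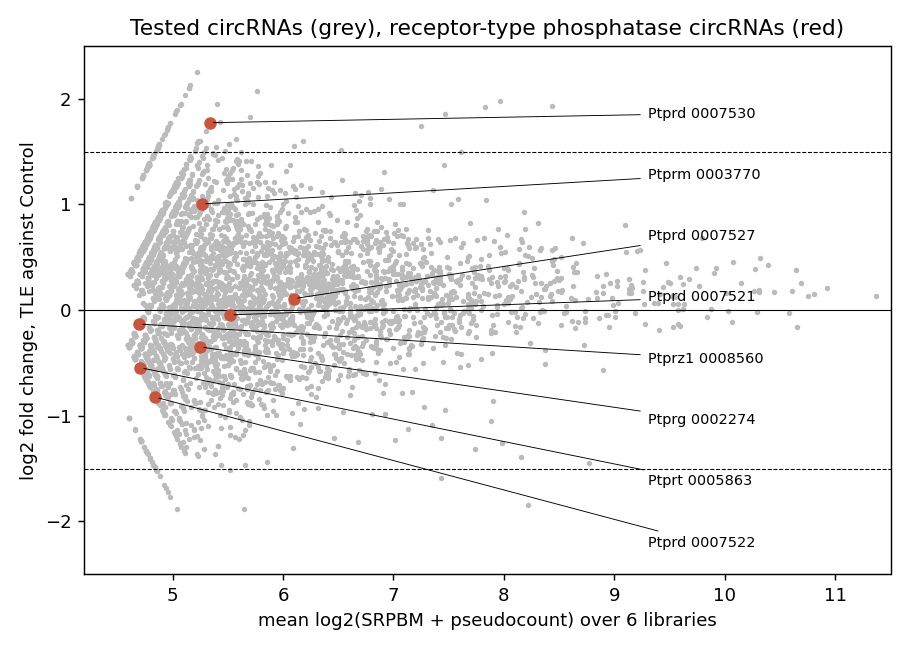
Log2 fold change of TLE against Control (vertical axis) by mean log2(SRPBM + 17.1) (horizontal axis) for the 4271 tested circRNAs in grey and the 8 tested phosphatase circRNAs in red; dashed lines mark the limits of 1.5 in both directions. All but Ptprd mmu_circ_0007530, at 1.77, lie between the dashed lines, and the red points sit in the left part of the axis, where many grey points lie too.

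The signal of all 27 circRNAs together was 333, 205 and 250 SRPBM in Control and 258, 342 and 502 SRPBM in TLE (263 ± 65.3 against 367 ± 124, SD, n = 3). The groups overlapped. As a share of all circRNA signal in the library this was 0.0948, 0.0618 and 0.0694% in Control and 0.0769, 0.0836 and 0.103% in TLE. The 95% Wilson intervals of these shares of reads ran from 0.0408 to 0.130% over the Control libraries and from 0.0521 to 0.133% over the TLE libraries, for counting error only. The mean share was 0.0753 ± 0.0173% in Control and 0.0877 ± 0.0133% in TLE (SD, n = 3), a difference within the spread of the libraries. Ptprd had the highest sum of the 6 hosts in every library. Below it, Ptprg, Ptprm, Ptprt and Ptprz1 had group means between 11.4 and 46.2 SRPBM and changed places from library to library, so their order was not separated by the spread. Ptprk had the lowest mean in both groups.

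By structure, 26 of the 27 circRNAs had both ends on exon boundaries of their host gene (96.3%, against 83.6% of all circRNAs, where rows without a single listed host count as misses). The exception was mmu_circ_0000168 of Ptprk. The 26 held between 2 and 16 exons with a median of 4, as over the series, and 21 of them held 2 to 5 exons. Their exons summed to a median of 578.5 nucleotides (609 over the series), with a range of 288 to 3784, if every exon in between is kept, which junction reads do not show. On the genome the 27 members spread wider, with a median distance between ends of 29120 bases against 14736 over the series. The introns next to them were also longer, with medians of 18280.5 bases upstream and 22392.5 bases downstream, against 10277 and 8655.5 bases. These are descriptions of 6 genes, whose circRNAs share exons and introns.

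Placed on the encoded proteins, 14 of the 26 circRNAs lay before the membrane segment, 8 crossed it and 4 lay after it. They had 129, 57 and 24 reads in the same order. The membrane segment was taken as the 19-residue window with the highest hydropathy, which in Ptprd-206 is residues 1270 to 1288. The active-site signature of tyrosine phosphatases, a histidine and cysteine followed after 5 residues by an arginine, begins at residue 1552 of Ptprd-206 in the first phosphatase domain. None of the 26 circRNAs held the whole of the first such signature. The nearest was mmu_circ_0007519 of Ptprd (exons 26 to 29), which ends at residue 1554, inside it. Exons wholly within the coding sequence made up 25 of the 26 circRNAs, and the coding length of 12 was a multiple of 3.

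**Figure D4:**
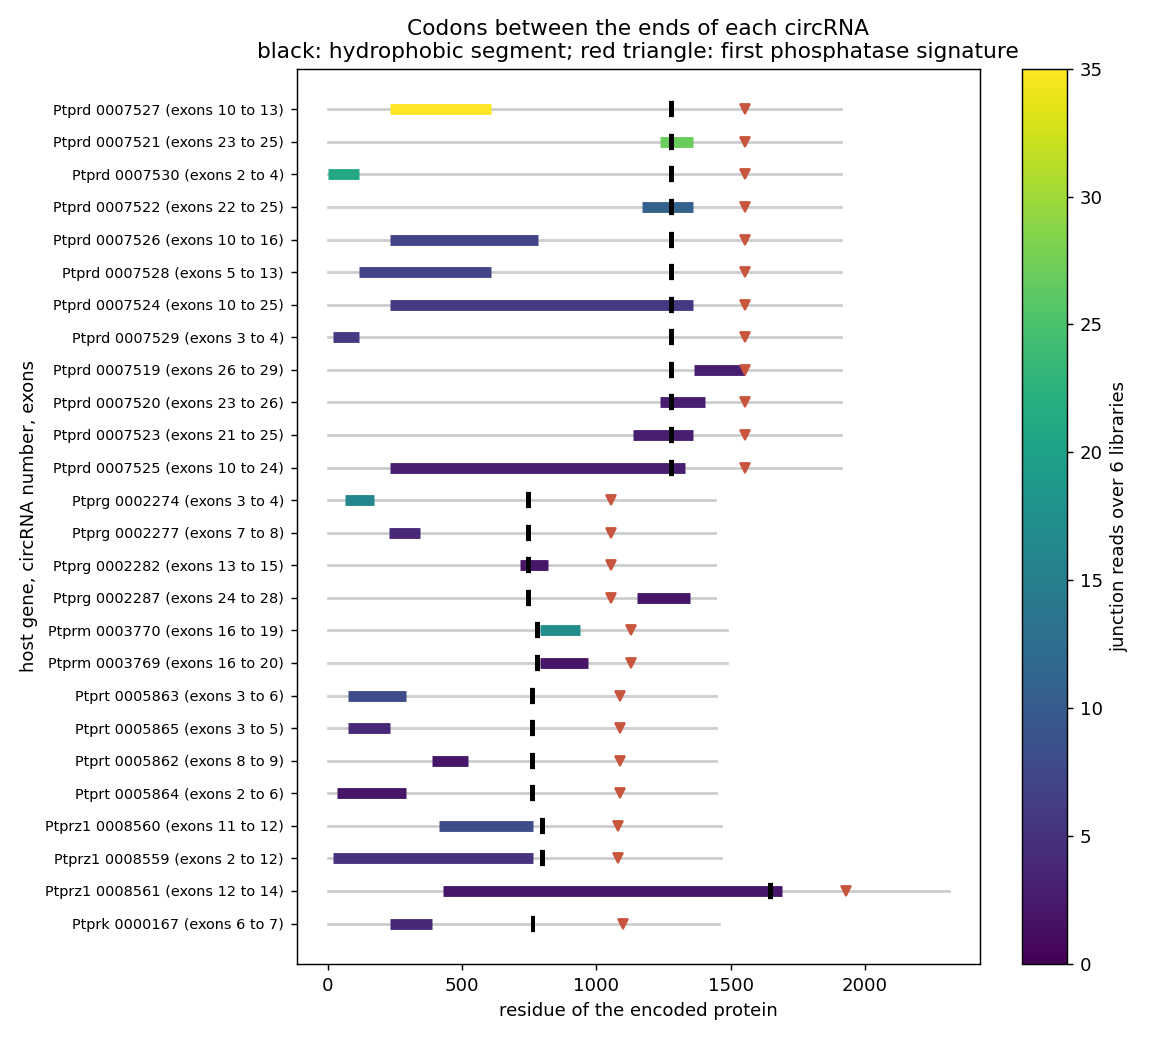
Position of the 26 circRNAs with both ends on exon boundaries along the encoded proteins (horizontal axis, residues; rows are circRNAs by host, grey lines the whole protein), coloured by junction reads over the 6 libraries; black marks are the membrane segment and red triangles the first phosphatase signature. Of the bars, 14 lie left of the black mark, and none covers a whole signature.

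Genes known to act with these receptors were read as hosts from the same table. Over all tested hosts, 1.53% were past the threshold and higher, 0.371% were past it and lower, and the median log2 fold change was 0.20. With 3 to 7 hosts tested per list, a count of 0 says little about a list, and the list medians were not tested. Of 11 other receptor-type phosphatases, 5 had circRNAs (13 circRNAs in all), 4 were tested and 0 passed the threshold in either direction. Their median log2 fold change was -0.23 against 0.20 over all hosts. The highest was Ptprn, a protein of secretory vesicles without phosphatase activity, at 76.9, 27.9 and 103 SRPBM in Control and 31.0, 87.7 and 26.0 SRPBM in TLE, with overlap. Of 15 trans-synaptic partners of the LAR type, 5 had circRNAs, 3 were tested and 0 passed (median -0.11). Ntrk3, the neurotrophin receptor that binds Ptprs across the synapse, had the highest sum, with 607, 558 and 508 SRPBM in Control and 434, 438 and 718 SRPBM in TLE. TLE replicate 3 was above, and the other TLE libraries below, all Control libraries. Il1rapl1, a synaptic partner of Ptprd named after its values were seen, had 0, 46.5 and 0 SRPBM in Control and 72.3, 26.3 and 77.9 SRPBM in TLE, with overlap. Its log2 fold change was 1.44 (SE 0.68, limma, unadjusted p = 0.0477, adjusted p = 0.792), just under the fold limit. Of all 2157 hosts tested with limma, 133 had an unadjusted p under 0.05.

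Inside the cell, LAR type receptors bind liprins and other scaffolds. Of 14 such genes, 7 had circRNAs (48 in all), 6 were tested and 0 passed, with a median of 0.56. Erc2, an active-zone scaffold, led with 367, 223 and 198 SRPBM in Control and 279, 298 and 216 SRPBM in TLE, and the groups overlapped (log2 fold change 0.04, SE 0.32). Trio, an exchange factor for small GTPases that was also named after its values were seen, had 25.6, 18.6 and 0 SRPBM in Control and 93.0, 78.9 and 26.0 SRPBM in TLE. Its groups did not overlap, as for 10.7% of all tested hosts with TLE above, though TLE replicate 3 and Control replicate 1 had 3 reads each. The log2 fold change of Trio was 1.38 (SE 0.64, limma, unadjusted p = 0.0449, adjusted p = 0.780). Among 13 ligands of the carbonic anhydrase type, 9 had circRNAs, 7 were tested and 0 passed (median 0.31). Cntn5, a contactin, was highest there, with 222, 121 and 172 SRPBM in Control and 207, 272 and 329 SRPBM in TLE (log2 fold change 0.61, SE 0.33). Cntn3, another contactin named after its values were seen, had 51.3, 37.2 and 51.7 SRPBM in Control and 0, 35.1 and 34.6 SRPBM in TLE. Here TLE was below Control without overlap, as for 1.95% of all tested hosts, though Control replicate 2 and TLE replicates 2 and 3 had 4 reads each. The log2 fold change of Cntn3 was -0.82 (SE 0.63, limma, unadjusted p = 0.209, adjusted p = 0.891). Of 6 cadherin and catenin partners of the MAM type, 3 had circRNAs, 3 were tested and 0 passed (median 0.67). Ctnnb1, which encodes beta-catenin, had 1 circRNA. It gave 59.8, 0 and 0 SRPBM in Control and 82.6, 26.3 and 60.6 SRPBM in TLE, with overlap at Control replicate 1.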

How the data were processed

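The data are circRNA values of 6 mouse cortex libraries (3 Control, 3 TLE). The authors depleted ribosomal RNA, sequenced directional paired-end libraries, found circRNAs with CIRI after BWA-MEM alignment (mm10, per the labels) and deposited a signal in SRPBM, junction reads scaled to mapped reads. DESeq2, which the submitters' notes name, was not used here. The 6 deposited files were identical and 1 was read. Every value was a whole multiple of 1 step (tolerance 0.1 steps), the smallest value above 0 being 2 steps, and 1 step was taken as 1 read.

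Host identifiers were matched to symbols (3466 of 3469 hosts). Rows with several hosts (61) or none (837) entered no host sum. limma 3.58.1 in R 4.3.3 (lmFit, eBayes with trend, two-sided) was fitted to log2(SRPBM + 17.1), the pseudocount being the smallest value above 0, over all circRNAs or host sums above 0 in at least 3 libraries. As a group also holds 3 libraries, a circRNA or host can pass this filter through 1 group alone. P-values were adjusted over all features by the Benjamini-Hochberg method. The threshold (log2 fold change 1.5, p 0.05) is the study's, whose p is not stated to be adjusted. Exons came from GENCODE M21 (GRCm38), and the longest coding transcript with both ends was used. The fit was tested on simulated data. A first simulation recovered fewer of the changed circRNAs than the minimum set for it, and larger changes were then simulated with the fit left as it was. A count of 0 past the threshold therefore says little about moderate changes, and members had fewer reads than the simulated circRNAs. Replicate libraries differed by more than sampling noise. They come from separate mice.

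The members and gene lists were chosen with earlier results of these data known. Permutation tests of sums over the members were planned but are not given, since the members were not chosen blind to results. The circRNAs named are the most abundant of each host, those past the threshold, those without overlap between groups, and the 3 highest and 3 lowest log2 fold changes. Others, named to complete a host or a shared exon end, were chosen after their values were seen, as were Il1rapl1, Trio and Cntn3. Of each partner list the host with the most signal is named.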

Additional observations from a re-analysis of the deposited data

How the results depend on the processing

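Ptprd mmu_circ_0007530 remained past the threshold with a pseudocount of 8.55 SRPBM, a pseudocount of 1 SRPBM, no filter, a filter on the mean, rescaled totals, no trend, a fold limit of 1, and without any single library, where the number past it was 1. With an adjusted p under 0.05 required it was 0 (adjusted p 0.479 to 0.979 over the alternatives). For hosts it was 0 throughout. Directions that reversed were those of values not past the threshold. Rescaled totals turned mmu_circ_0007527 to -0.057. Leaving out 1 library gave -0.071 to 0.33 for it, -0.77 to 0.66 for mmu_circ_0007521, -0.66 to 0.14 for mmu_circ_0002274, -0.47 to 0.14 for mmu_circ_0008560, and for the sums -0.0021 to 0.65 (Ptprd), -0.43 to 0.080 (Ptprg) and -0.56 to 0.52 (Ptprt). The cause was not tested. Of the alternative values of the 14 named log2 fold changes, 153 kept direction and side of the threshold and 16 reversed. Without 1 library the TLE minus Control difference was 0.167 to 4.67 circRNAs detected, 0.00492 to 0.0221 percentage points of share and 37.5 to 159 SRPBM. With circRNAs in at least 3 libraries only, 5.67 were detected in Control and 5.33 in TLE.

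Over all features, 67 circRNAs and 41 hosts were past the threshold. The smallest adjusted p of any circRNA was 6.34e-06 with no filter and 0.00774 without TLE replicate 1, and of any host 0.00221 and 0.00927. The 8 phosphatase circRNAs of the main fit and the hosts, where tested in these fits (5 of the 6 hosts without TLE replicate 1), stayed above 0.05. With no filter all 27 members were tested, and the adjusted p of the other 19 in that fit is not given here. Over all features, 168 circRNAs and 77 hosts were past the threshold with a pseudocount of 8.55 SRPBM, and 130 circRNAs with a pseudocount of 1 SRPBM. Without Control replicate 1, 105 circRNAs of all genes were past it, and without Control replicate 3, 110 were. Without TLE replicate 1, 65 hosts of all kinds were past it. With the replicate block, 1 member circRNA and 0 hosts were past the threshold (mmu_circ_0007530, log2 fold change 1.77, limma, unadjusted p = 0.0123). Same-numbered libraries deviated together with correlations of 0.0103 to 0.0192 only. With so few reads per circRNA, these cannot tell whether the numbers pair mice, and the labels do not say so. The block changed no call. The edgeR and DESeq2 alternatives were not run, because junctions of 1 read are never listed and the table is not a complete count table. Sign-flip tests of the sums were not run either. With at most 8 reads per value, depth limits every comparison of single circRNAs here, and differences of a few reads were not detectable.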
